A study of Homo sapiens with 56 samples.

Results

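The genes described are the matrix metalloproteinases (MMPs), their tissue inhibitors (TIMPs) and genes of the plasminogen system. These 31 genes were listed by symbol, with earlier results of these data known. 30 of them were measured by a probe set that carries only that gene, out of 18377 such genes on the array, and SERPINB2 was not analysed here. RNA of 28 ovarian cancer cell lines, all established lines, was hybridised in duplicate to a total of 56 Affymetrix Human Gene ST arrays, and the labels give no treatment or engineered genetic change. The lines differ in culture medium. DMEM was used for 10 of them, RPMI for 9 and DMEM/F12 for 7, UWB1.289 grew in an RPMI and MEGM mixture, and TOV112D grew in MCDB105 with M199, with 3% to 20% fetal bovine serum and, for some, insulin or hydrocortisone. SKOV3 was grown in DMEM and PEO1 in RPMI, each with 10% serum. Levels are RMA log2 intensities, so a difference of 1 is a doubling of signal, and levels were never ranked between genes, since probes differ in affinity. Unless arrays are given, a level is the mean of the 2 arrays of a line.

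MMPs are zinc-dependent endopeptidases that cleave collagens, gelatin, laminins and other proteins around the cell. Most are secreted as inactive proenzymes, some are anchored to the membrane, and TIMPs bind and block the active enzymes. In the plasminogen system, urokinase (PLAU), held at the surface by its receptor (PLAUR), and the tissue-type activator (PLAT) turn plasminogen into plasmin, a serine protease that cleaves fibrin and can activate some proMMPs, and serpins such as SERPINE2 inhibit the activators. Ovarian cancer spreads over the peritoneum, and these enzymes have long been studied in its invasion and in epithelial-mesenchymal transition (EMT).

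9 of the MMP genes neighbour each other on chromosome 11, in the order MMP7, MMP20, MMP27, MMP8, MMP10, MMP1, MMP3, MMP12 and MMP13, with no other protein-coding gene between them in RefSeq (GRCh38.p14). They include the MMPs with the most uneven levels over the lines. RefSeq promoters were at hand for 18 of the 31 genes, and 5 of those genes belong to this row. The 120 bases before the transcription start are shown for them because MMP10 and MMP7 reached high levels in some lines, whereas their neighbours MMP8, MMP20 and MMP27 did not exceed the level of olfactory receptor genes, which served as background, in any line. Bases run 5′ to 3′ on the gene's strand, counted from -1 just before the start, and all 5 genes lie on the minus strand. Capitals mark TGANTCA, the core to which AP-1 (Jun and Fos proteins) binds, and TATAAA, the core of the TATA box.
MMP10 (chr11:102780629-102780748): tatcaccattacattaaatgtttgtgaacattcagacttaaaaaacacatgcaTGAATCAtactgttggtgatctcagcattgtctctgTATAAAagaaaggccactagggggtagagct
MMP7 (chr11:102530748-102530867): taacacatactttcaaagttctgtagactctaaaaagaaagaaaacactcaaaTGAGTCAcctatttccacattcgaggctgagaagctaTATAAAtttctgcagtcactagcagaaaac
MMP8 (chr11:102724955-102725074): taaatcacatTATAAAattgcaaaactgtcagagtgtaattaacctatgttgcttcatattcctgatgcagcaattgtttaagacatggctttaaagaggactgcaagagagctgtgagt
MMP20 (chr11:102625333-102625452): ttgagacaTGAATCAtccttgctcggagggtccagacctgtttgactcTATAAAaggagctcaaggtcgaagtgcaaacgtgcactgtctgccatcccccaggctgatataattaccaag
MMP27 (chr11:102705770-102705889): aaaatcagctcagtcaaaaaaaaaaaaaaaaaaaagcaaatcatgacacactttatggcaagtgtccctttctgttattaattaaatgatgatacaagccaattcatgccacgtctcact
MMP10 and MMP7 share the layout, with TGANTCA at -67 to -61 in both and TATAAA at -31 to -26 in MMP10 and at -30 to -25 in MMP7. MMP20 holds both motifs farther from its start, at -112 to -106 and at -72 to -67. MMP8 has TATAAA alone, at -110 to -105, and MMP27 has neither. Searched on both strands, where TGANTCA reads the same, and with no overlap between the motifs, TGANTCA occurred in the last 120 bases of 3.34% of 35116 promoters, TATAAA in 5.63% and both in 0.293%. A match is a description of letters and does not show that a factor binds there.

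3 of the 56 arrays (HEYC2 replicate 1, OVCA420 replicate 1 and OV56 replicate 2) stood apart from their duplicates (Pearson's r over genes 0.615 to 0.806). Each was closer to another of these 3 arrays than to its duplicate. HEYC2 replicate 1 and OV56 replicate 2 were closest to each other (0.936), and OVCA420 replicate 1 was closest to HEYC2 replicate 1 (0.917). Of the 840 pairs of a gene and a line, 38 had arrays that differed by more than 1 log2 unit, and 36 of these were in those 3 lines, against a median difference of 0.16, so values of those lines are given by array where they matter. The files hold no detection calls. As a rule of thumb, a gene was called above background in a line where both arrays exceeded the 95th percentile of 339 olfactory receptor genes on the same array, which was 5.10 to 5.67 on the other arrays and 6.17 to 6.38 on the 3 apart. Of 8 markers of epithelial ovarian carcinoma, 6 exceeded it in every line. Of 8 measured leukocyte and macrophage markers, PTPRC, CD163, AIF1 and CD3E exceeded it in none, ITGAM in 1 line, CSF1R in 8, CD14 in 26 and TYROBP in 28. Of 5 neutrophil markers, CSF3R, CXCR2 and MPO exceeded it in none, S100A8 in 1 line and S100A9 in 28. Of 8 fibroblast markers, COL1A1 and COL1A2 exceeded it in all 28 lines, COL3A1 in 27, THY1 in 26, PDGFRB in 20, LUM in 3 and DCN and FAP in 2 each, and the mean level of the list ran between 5.02 and 7.73 over the lines. The 5 endothelial markers averaged 4.57 to 8.08 over the lines, with TYKNU highest.

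By that rule, 10 of the 30 genes were above background in all 28 lines, 14 in some and 6 in none, where 41.9% of all genes were above it in every line and 15.96% in none, and a single line had between 14 and 20 of them (median 17.5). TIMP1, TIMP2, TIMP3, PLAU, PLAUR, PLAT and MMP14 were among those above background throughout, and so were MMP11, MMP17 and MMP25. The rule does not by itself show expression, and the leukocyte and macrophage marker TYROBP also passed it in all 28 lines. The 6 that never exceeded background were MMP8 (neutrophil collagenase), MMP12 (macrophage elastase), MMP13 (collagenase-3), MMP20 (enamelysin, an enzyme of tooth enamel), MMP26 and MMP27. 24 of the 30 differed between lines beyond the spread of their 2 arrays (limma F test, adjusted p under 0.05), read against 65.7% of all genes. MMP12, MMP17, MMP20, MMP21, MMP25 and MMP27 did not pass. No source says whether duplicate arrays stem from separate cultures, so these p-values reflect array-to-array spread, possibly technical. Each array reads a whole culture, where fewer expressing cells and less RNA per cell cannot be told apart.

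The genes were uneven over the lines. 13 of 30 had a standard deviation over lines above the 90th percentile of all genes (0.87 log2 units), where 10% of genes lie by construction. 8 had a line at least 3 log2 units above their own median, MMP1, MMP2, MMP3, MMP7, MMP10, TIMP3, PLAT and SERPINE2, against 4.15% of all genes. These high values were 18 combinations of a gene and a line, in 12 of the lines. SKOV3 had 3 of them (MMP1, MMP2 and SERPINE2), A2780 had 3 (MMP3, MMP10 and TIMP3), OV7 had MMP2 and PLAT, and TYKNU had MMP1 and PLAT. Averaging in the 3 arrays that stand apart kept some values out. Without those arrays the combinations were 21, the 18 and MMP7 in OVCA420 (8.48) and in OV56 (8.11) and PLAT in OV56 (10.71), each read there from 1 array. The endothelial markers PECAM1, CDH5, KDR and TEK, 4 of the 5 measured, were highest in TYKNU, at 9.79, 9.28, 8.06 and 7.87, and their part in its levels of MMP1 and PLAT was not tested.

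**Figure D1:**
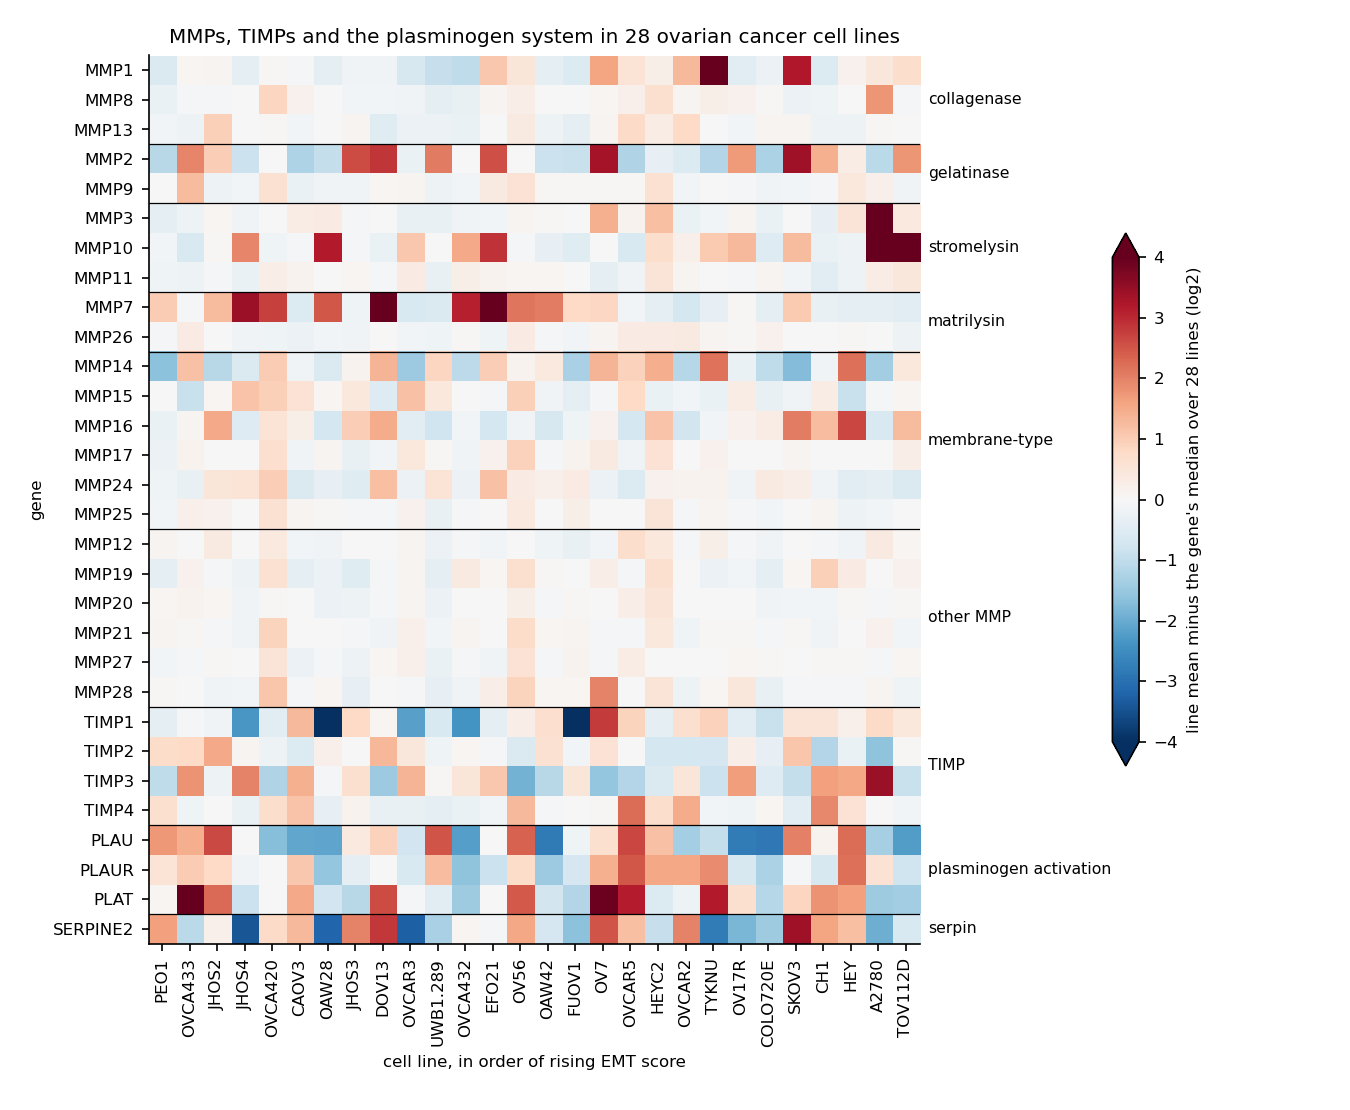
Level of each of 30 genes (rows, grouped by role) in each of 28 lines (columns, from PEO1 with the lowest EMT score to TOV112D with the highest), as the line mean minus the gene's own median over lines in log2 units, with colours ending at 4. Dark red cells stand alone or in small groups, such as MMP1 in TYKNU, MMP3 and MMP10 in A2780 and MMP7 in EFO21 and DOV13, and most rows of MMP8, MMP12 and MMP17 to MMP28 stay pale.

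Among the collagenases, which open the triple helix of fibrillar collagen, only MMP1 reached a high level. MMP1, the interstitial collagenase, ran over the lines with a lowest value of 4.39 (OVCA432), a median of 5.42 and a highest of 12.94 (TYKNU). In TYKNU its arrays read 13.04 and 12.83, and in SKOV3, the next line, 8.50 and 8.75, so that TYKNU lay 4.31 above the next line. 12 lines exceeded background for MMP1. MMP8, the neutrophil collagenase, was highest in A2780 at 4.67, with a median of 2.91, and MMP13, collagenase-3, was highest in JHOS2 at 4.91, with a median of 3.94. Neither exceeded background in any line.

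Of the gelatinases, which digest denatured collagen and the type IV collagen of basement membranes, MMP2 varied widely and MMP9 little. MMP2 had a lowest value of 5.17 (COLO720E), a median of 6.44 and a highest of 9.82 (SKOV3). OV7 at 9.76, DOV13 at 9.30, JHOS3 at 9.04 and EFO21 at 9.03 came next, and 21 lines exceeded background. Its values were spread over the whole range and not set by 1 line. MMP9 lay between 5.21 (CAOV3) and 6.75 (OVCA433), with a median of 5.47, near background, and exceeded it in 17 lines.

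The stromelysins cleave proteoglycans, laminin and fibronectin and can activate procollagenase. MMP3, stromelysin-1, was high in 1 line, A2780, with arrays at 9.44 and 9.41, whereas the other lines lay between 4.14 and 5.94 around a median of 4.52. Besides A2780 only OV7 exceeded background. MMP10, stromelysin-2, read 10.17 and 10.14 in A2780, 9.15 and 9.21 in TOV112D, and 8.12 and 7.93 in OAW28, against a lowest value of 4.24 (OVCA433) and a median of 4.86. EFO21 followed at 7.76, and 10 lines exceeded background for MMP10. MMP3 in TOV112D was 4.90, so TOV112D was high for MMP10 and not for MMP3. MMP11, stromelysin-3, stayed between 5.94 and 6.89.

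Matrilysins are small MMPs without the hemopexin domain, and MMP7 is typical of glandular epithelium. MMP7 had a lowest value of 3.93 (OVCAR2), a median of 4.64 and a highest of 10.55 (EFO21, arrays 10.44 and 10.66). DOV13 read 9.46 and 9.45, JHOS4 8.38 and 7.72, and OVCA432 7.46 and 8.01. These 4 lines were at least 3 log2 units above the median, and 8 exceeded background. OAW28 read 6.91 and 7.33. In OVCA420 and OV56 the arrays disagreed, at 6.28 and 8.48 in OVCA420 and at 8.11 and 5.47 in OV56. MMP26, the other matrilysin, stayed at 3.15 to 3.73.

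The highest line was not the same for all of the neighbouring genes on chromosome 11. TYKNU, highest for MMP1, had 5.92 for MMP10, and MMP3 there was under its median, and A2780, highest for MMP10 and MMP3, had 5.87 for MMP1. EFO21 was highest for MMP7 and had 7.76 for MMP10, while its MMP3 was 4.41. A2780 was highest for 3 genes of the row, MMP8, MMP10 and MMP3, although MMP8 there stayed under background. Over the 28 lines Spearman's rho was 0.461 between MMP1 and MMP3, 0.154 between MMP1 and MMP10, 0.198 between MMP3 and MMP10, 0.034 between MMP7 and MMP10 (-0.053 without the 3 arrays that stand apart), 0.313 between MMP1 and MMP12 and 0.654 between MMP1 and MMP13. MMP12 and MMP13 did not exceed background in any line, and MMP1, MMP3, MMP7 and MMP10 exceeded it in 12, 2, 8 and 10 lines. These correlations are descriptions over lines that share a platform and a normalization, and Pearson's r between MMP3 and MMP10, 0.562, was 0.095 without A2780. MMP20, MMP27, MMP12 and MMP13 stayed between 3.13 and 5.03 in every line.

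**Figure D2:**
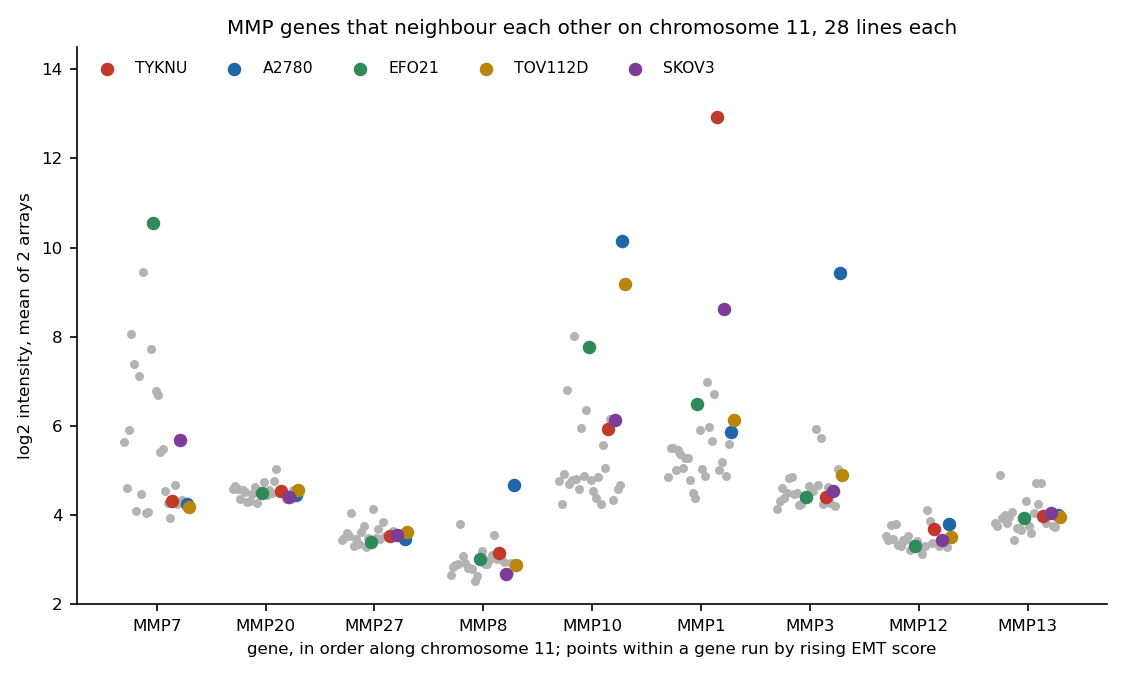
Log2 intensity (mean of 2 arrays) of the 9 neighbouring MMP genes in 28 lines each, in gene order along the chromosome, with the points of a gene ordered by EMT score and 5 lines in colour. TYKNU stands far above the other lines for MMP1 at 12.94 and A2780 for MMP3 at 9.43. A2780 is highest for MMP10 at 10.15, with TOV112D next at 9.18, and EFO21 for MMP7 at 10.55, with DOV13 next at 9.45.

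The membrane-type MMPs act at the cell surface, and MMP14 (MT1-MMP) is an activator of proMMP2. MMP14 was above background in every line, with a lowest value of 5.73 (SKOV3), a median of 7.47 and a highest of 9.68 (HEY), and TYKNU read 9.65. HEYC2, whose name marks it as related to HEY, came next at 8.69 and 9.14 by array. SKOV3, highest of all lines for MMP2, was thus lowest for MMP14, and over the lines MMP14 and MMP2 had a rho of 0.244. MMP16 (MT3-MMP) had a median of 4.94 and was highest in HEY (7.81 and 7.39) and SKOV3 (6.86 and 7.10), with 7 lines above background. In HEYC2 its arrays read 4.98, on the array that stands apart, and 7.19. MMP15 ran between 5.67 (HEY) and 7.72 (OVCAR3) and MMP24 between 5.24 and 7.03 (DOV13). MMP17 and MMP25, which are tied to the membrane by a lipid anchor, did not differ beyond the spread of arrays. Among the remaining MMPs, MMP28 (epilysin) stood out in OV7 at 7.83, against a median of 5.84, and MMP19 ran between 4.73 and 6.14 and MMP21 between 5.11 and 6.18.

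All 4 TIMPs differed between lines, and each was highest in a different line. TIMP1 had a lowest value of 6.25 (FUOV1), a median between OVCA433 at 10.91 and DOV13 at 11.09, and a highest of 13.81 (OV7, arrays 13.73 and 13.89). OVCAR3 at 8.84, JHOS4 at 8.68, OVCA432 at 8.61, OAW28 at 6.88 and FUOV1 were low, and every other line was at least 10.11. TIMP2, which both inhibits MMP2 and takes part in its activation by MMP14, had a standard deviation over lines of 0.71 against 1.60 for TIMP1, and lay between 7.86 (A2780) and 10.99 (JHOS2) around a median of 9.49. TIMP3, which is bound to the matrix, had a lowest value of 5.99 (OV56), a median of 7.89 and a highest of 11.36 (A2780, arrays 11.27 and 11.44), with JHOS4 next at 9.87. A2780 was thus highest for TIMP3 and lowest for TIMP2, and was the line with the high stromelysins. TIMP4 lay near background in most lines, at a median of 5.72, and reached 7.94 in OVCAR5 and 7.64 in CH1.

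The plasminogen activators and the urokinase receptor were above background in every line and varied over more than 4 log2 units each. PLAU had a lowest value of 6.15 (COLO720E), a median of 9.01 and a highest of 11.67 (OVCAR5), followed by JHOS2 at 11.64 and UWB1.289 at 11.51. In OV56 the arrays read 11.97 and, on the array that stands apart, 10.74, and without that array OV56 was highest for PLAU. PLAUR had a lowest value of 6.13 (OVCA432), a median of 7.73 and a highest of 10.23 (OVCAR5), followed by HEY at 9.95 and TYKNU at 9.64. PLAT had a lowest value of 6.12 (OVCA432), a median of 7.53 and a highest of 11.71 (OVCA433, arrays 11.75 and 11.67). OV7 (12.05 and 10.86), TYKNU (10.69 and 10.74) and OVCAR5 (10.65 and 10.69) were also at least 3 log2 units above the median for PLAT, and OV56 read 10.71 and, on the array that stands apart, 9.28. SERPINE2, protease nexin-1, which inhibits thrombin, urokinase and the tissue-type activator, had a lowest value of 4.79 (JHOS4), a median of 8.22 and a highest of 11.61 (SKOV3, arrays 11.69 and 11.54). DOV13 and OV7 came next for SERPINE2 at 11.04 and 10.74, and 5 lines did not exceed background. Its arrays disagreed in the 3 lines with an array that stands apart, at 6.10 and 8.51 in HEYC2, 11.02 and 8.55 in OV56 and 7.58 and 10.39 in OVCA420.

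The receptor and the activators had positive rank correlations with each other. PLAU and PLAUR had a rho of 0.615 over 28 lines (Pearson's r 0.602), and 0.620 without the 3 arrays that stand apart. Within media the rho was 0.455 in 10 lines in DMEM, 0.667 in 9 lines in RPMI and 0.821 in 7 lines in DMEM/F12. Here and below these groups share only a base medium, and lines within each differ in serum, insulin or hydrocortisone. TYKNU, OVCAR2 and CAOV3 had high PLAUR (9.64, 9.28 and 8.82) with PLAU of 8.04, 7.64 and 6.93, and SKOV3 had PLAU of 11.03 with PLAUR of 7.69. PLAUR and PLAT had a rho of 0.590, and PLAU and PLAT of 0.549. Of the 78 pairs among the 13 genes that varied most, 6 had a rho above 0.5 and none below -0.5, with a median of 0.142. Without the 3 arrays that stand apart 4 were above 0.5 and 1 was below -0.5, TIMP3 with SERPINE2 (-0.540, against -0.453 with them). Besides the 3 pairs of receptor and activators, those above 0.5 over all arrays were TIMP1 with MMP1 (0.645), with SERPINE2 (0.533) and with PLAUR (0.500). TIMP1 had a rho of 0.451 with SERPINE2 and 0.499 with PLAUR without the 3 arrays. For MMP1 and TIMP1, Pearson's r was 0.387 and the rho within media 0.370, 0.617 and 0.857 in DMEM, RPMI and DMEM/F12, with FUOV1 and OAW28 low for both. MMP1 exceeded background in 12 of the 28 lines, not in FUOV1 or OAW28, so its ranks are mostly of values not above background. Of the protease and inhibitor pairs, MMP2 and TIMP2 had a rho of 0.397, MMP14 and TIMP2 of -0.151 and MMP9 and TIMP1 of 0.002. SERPINE2 had a rho of 0.386 with PLAU and 0.400 with PLAT.

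**Figure D3:**
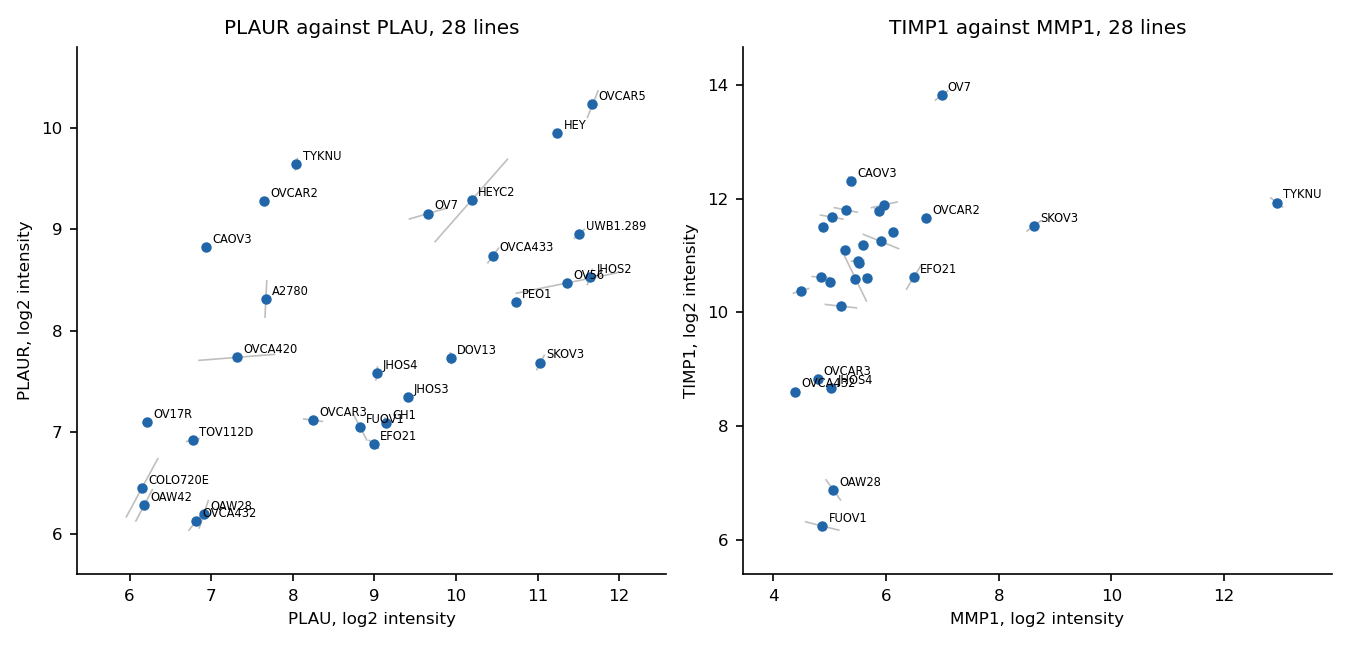
PLAUR against PLAU and TIMP1 against MMP1, in log2 intensity, with a point for the mean of each of 28 lines and a grey segment joining its 2 arrays. In the left panel points run upward, with OVCAR5 and HEY at the top right; in the right panel TYKNU lies far to the right at an MMP1 of 12.94, and FUOV1 and OAW28 are low for TIMP1 (names left out in the crowded middle).

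Whether the proteases follow the mesenchymal state of a line was asked by relating each gene to the EMT score. The score, rebuilt here and so on a scale of its own, is positive where 200 mesenchymal signature genes lie higher than 182 epithelial ones, and ran over the lines between -0.82 (PEO1) and 0.73 (TOV112D). Its sign differed between duplicate arrays in FUOV1 (0.38 and -0.33), OV7 (0.53 and -0.12) and OAW42 (0.18 and -0.15). The same held for HEYC2 (-0.21 and 0.70) and OV56 (0.12 and -0.30), so the place of these lines along the score depends on the array. None of the 30 genes passed an adjusted p under 0.05 (Spearman's rho, 100000 permutations, 2-sided, Benjamini-Hochberg over 18377 genes), read against 0.789% of all genes, and none passed by Pearson's r or by a limma slope. 3 had an unadjusted p under 0.05 by rho, as did 10.0% of all genes, and 4 each by Pearson's r and limma. None had a rho above 0.5, against 1.02% of all genes, and none below -0.5, against 2.08%. The median size of rho was 0.154 for the 30 genes and 0.151 for all genes. MMP16, a signature gene of the score, had a rho of 0.192.

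**Figure D4:**
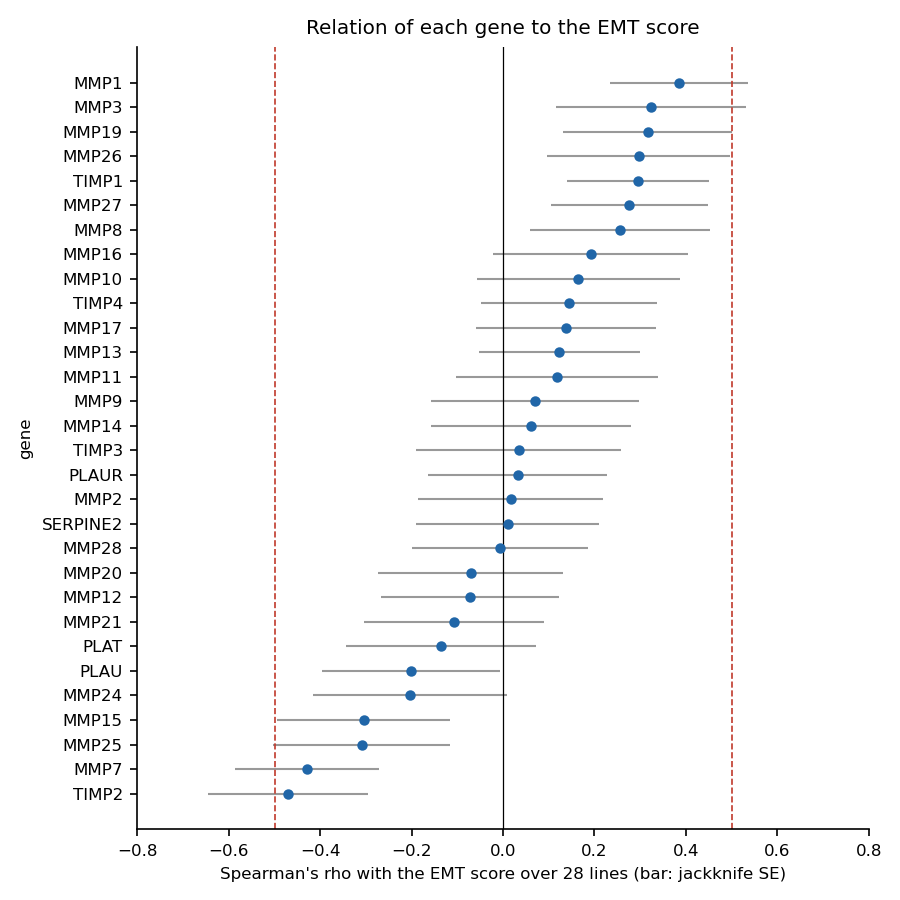
Spearman's rho of each of 30 genes with the EMT score over 28 lines, with bars for the jackknife standard error over lines and dashed lines at -0.5 and 0.5. The genes run from -0.470 for TIMP2 at the bottom to 0.384 for MMP1 at the top, and no point passes a dashed line.

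TIMP2 had the lowest rho, -0.470 (permutation p = 0.0125, adjusted p = 0.291, jackknife standard error 0.174). Pearson's r was -0.474, and -0.470 with PEO1 and TOV112D left out, whose scores lie farthest from the median. Over the alternatives its rho ran between -0.538 without the 3 arrays that stand apart (adjusted p = 0.137) and -0.350 without replicate 2 (adjusted p = 0.572). Within media it was -0.817 in 9 lines in RPMI (exact permutation p = 0.0108, adjusted p = 0.0969 over 9 relations), -0.212 in 10 lines in DMEM (permutation p = 0.559, adjusted p = 0.840) and -0.107 in DMEM/F12 (7 lines, exact permutation p = 0.840, adjusted p = 0.840). MMP7 had a rho of -0.429 (permutation p = 0.0239, adjusted p = 0.379, standard error 0.158), and its Pearson's r was -0.418. Its 8 highest lines had mean scores of at most 0.02, with JHOS4 lowest at -0.53 and OAW42 highest at 0.02. By array the bound did not hold. The score was 0.18 and -0.15 in OAW42, and 0.12 and, on the array that stands apart, -0.30 in OV56. These 8 highest lines are not the 8 lines above background for MMP7. Those leave out OVCA420 and OV56 and include JHOS2 (5.91, score -0.54) and SKOV3 (5.68, score 0.54). Within media the rho of MMP7 was -0.176, -0.450 and -0.464 in DMEM, RPMI and DMEM/F12 (lowest permutation or exact p = 0.230, adjusted p = 0.840). MMP1 had the highest rho, 0.384 (permutation p = 0.0459, adjusted p = 0.481, standard error 0.151), and its Pearson's r was 0.363. Within DMEM, RPMI and DMEM/F12 its rho was -0.164, 0.283 and -0.143, and its Pearson's r 0.517, 0.445 and 0.234, so the sign of rho, not of r, differed between media (lowest permutation or exact p = 0.0920, adjusted p = 0.414). MMP3 had a Pearson's r of 0.383 (adjusted p = 0.363) with a rho of 0.324, and A2780, its only high line, had the second highest score.

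Slopes on the score were compared between the 10 lines in DMEM and the 9 in RPMI. None of the 30 genes, and 0% of all genes, differed at an adjusted p under 0.05 (limma interaction), and 1 of the 30 had an unadjusted p under 0.05. Each gene was also set beside 3 genes of the epithelial or mesenchymal state, as a description over the 28 lines. VIM (vimentin) had a rho above 0.5 with MMP1 (0.625), TIMP1 (0.556) and MMP2 (0.502), CDH1 (E-cadherin) had a rho of -0.515 with MMP1, and GRHL2, an epithelial transcription factor, had none past 0.5 in size and was lowest with MMP1 (-0.436). Without the 3 arrays that stand apart, MMP1 with CDH1 was -0.470 and MMP2 with VIM 0.476, while MMP19 and MMP26 with VIM were 0.583 and 0.525. MMP26 did not exceed background in any line and MMP19 did in 4, so their ranks are mostly of values not above background. MMP1 exceeded it in 12 of the 28 lines.

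SKOV3 and PEO1 are 2 lines of the study's cell model of EMT, and their rebuilt scores were 0.54 and -0.82. 5 of the 30 genes were higher in SKOV3 (limma, adjusted p under 0.05 and at least 1 log2 unit), read against 5.31% of all genes, and 1 was lower, against 5.46%. MMP2 read 9.68 and 9.96 in SKOV3, against 5.41 and 5.27 in PEO1, a difference of 4.48 (standard error 0.26, adjusted p = 5.68e-15). MMP1 read 8.50 and 8.75 in SKOV3, against 4.69 and 5.00 in PEO1, a difference of 3.78 (standard error 0.21, adjusted p = 2.06e-15). Both were above background in SKOV3 and not in PEO1, so the levels in PEO1 are themselves only bounds. Set against the olfactory receptor level where it exceeded the PEO1 array, MMP2 was at least 21.7-fold and MMP1 at least 9.72-fold higher in SKOV3, and the arrays of the lines did not overlap.
MMP16 read 6.86 and 7.10 in SKOV3, against 4.80 and 4.52 in PEO1, a difference of 2.32 (standard error 0.36, adjusted p = 9.59e-06). MMP10 read 6.04 and 6.20 in SKOV3, against 4.75 and 4.78 in PEO1, a difference of 1.36 (adjusted p = 0.000955). These, too, were not above background in PEO1, and on the same basis MMP16 was at least 3.11-fold and MMP10 at least 1.71-fold higher in SKOV3, which for MMP10 is under the minimum size of the call. SERPINE2 read 11.69 and 11.54 in SKOV3, against 9.90 and 9.84 in PEO1, a difference of 1.74 (standard error 0.58, adjusted p = 0.0339), and its call was lost when any 1 of the 4 arrays was left out (adjusted p = 0.117 to 0.166, difference 1.67 to 1.82). The spread in the fit is estimated over all lines, and without the 3 arrays that stand apart the adjusted p for SERPINE2 was 1.28e-13.
TIMP4 was the gene that was lower in SKOV3, at 5.30 and 5.24, against 6.21 and 6.48 in PEO1, a difference of -1.08 (standard error 0.22, adjusted p = 0.000446). It was not above background in SKOV3 (at least 2.05-fold lower there), and the difference was -0.94, under the minimum of 1, when PEO1 replicate 2 was left out. TIMP1 (difference 0.90, adjusted p = 0.00105) and PLAUR (-0.60, adjusted p = 0.0242) passed the p but not the minimum size. The 24 genes that were not called differed by -0.60 to 0.90, among them MMP14, which was low in both lines, at 5.54 and 5.93 in SKOV3, against 5.80 and 5.88 in PEO1. The lines were grown in different media, so line and medium cannot be told apart in this comparison.

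**Figure D5:**
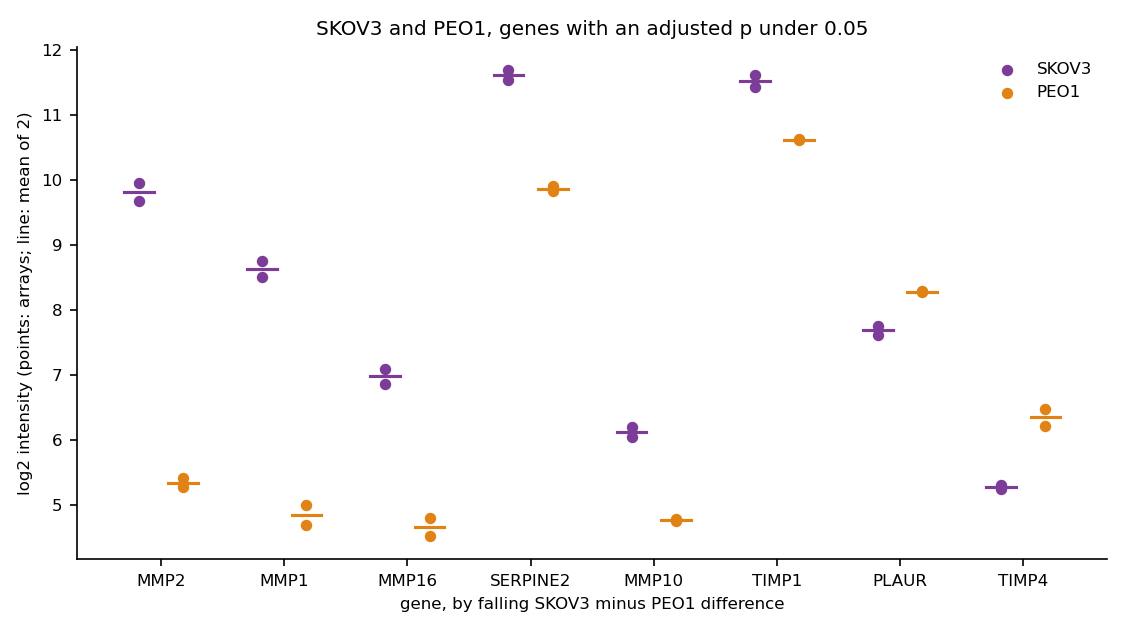
Log2 intensity of the 8 genes with an adjusted p under 0.05 between SKOV3 (left of each pair) and PEO1 (right), with a point for each array and a line for the mean of 2. MMP2, MMP1, MMP16 and MMP10 lie above PEO1 in SKOV3, TIMP4 lies below it, and TIMP1 and PLAUR differ by less than 1 log2 unit.

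Other genes of pericellular proteolysis were read from lists of MMP regulators, plasminogen receptors and cofactors, ADAM and ADAMTS proteases, cathepsins and AP-1 and ETS factors, 56 of 58 genes measured. None of the 56 passed an adjusted p under 0.05 along the score, read against 0.789% of all genes. A rho above 0.5 was found for 1, against 1.02% of all genes, and below -0.5 for 1, against 2.08%. LCN2, a lipocalin that binds and stabilizes MMP9, had a rho of -0.607 (permutation test, adjusted p = 0.0673), and PCOLCE, an enhancer of procollagen C-proteinases, a rho of 0.522 (adjusted p = 0.201). The score itself contains both genes, so these 2 values are not independent of it. PLG, the gene of plasminogen itself, which is made mainly by the liver, did not exceed background in any line. All 11 AP-1 and ETS factors were above background in every line, as were 41.9% of all genes. Between SKOV3 and PEO1, 13 of the 56 were higher in SKOV3, read against 5.31% of all genes, and 6 lower, against 5.46%. JUN, an AP-1 subunit, averaged 10.56 in SKOV3 and 7.91 in PEO1 and was highest of all lines in SKOV3 (difference 2.65, adjusted p = 6.02e-09). It was the only 1 of the 11 AP-1 and ETS factors called higher in SKOV3. Called lower there were 3 of the 11, JUNB, also an AP-1 subunit (difference -1.475), ETS2 (-1.205) and ETV4 (-1.513). RECK, a membrane-anchored inhibitor of MMPs, averaged 7.81 in SKOV3 and 5.87 in PEO1 (difference 1.94, adjusted p = 1.19e-07). LCN2 averaged 6.09 in SKOV3 and 11.73 in PEO1 (difference -5.64, adjusted p = 2.42e-15). JUN and RECK were picked with their values known and are not the largest differences. ADAMTS1 (difference 5.025) and ADAMTS5 (3.299) were farther above PEO1 in SKOV3.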

How the data were processed

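The authors deposited log2 intensities (1.35 to 14.89), which the submitters' processing notes credit to RMA (affy 1.42.3). Which arrays were normalized together is not given in the sources used here. Only the 19310 of 28869 probe sets with a single gene were used (18377 genes); a gene with several was read from that of highest mean (685 genes). Duplicate arrays were averaged. The EMT score was rebuilt as a signed Kolmogorov-Smirnov statistic of mesenchymal against epithelial signature genes of the study's supplement, after centring each gene on its median over lines, since its details are not given. Line comparisons used limma 3.58.1 (R 4.3.3, trend and robust), and rho used Python 3.11.15 with scipy 1.17.1. All genes entered the Benjamini-Hochberg adjustment, and each step was tested on simulated data. The members and lists were chosen with earlier results of these data known. Values are given in full for genes called along the score or between SKOV3 and PEO1, or with a line at least 3 log2 units above their median. The number of arrays limits the precision.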

Additional observations from a re-analysis of the deposited data

How the results depend on the processing

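For the counts and for TIMP2, MMP7 and MMP1 along the score and the 6 genes called between SKOV3 and PEO1, no direction turned over the whole set of lines, while within media the rho of MMP1 did. The count along the EMT score stayed 0 under every form of the score, single arrays, probe set means, the filter on low genes, quantile normalization on top (array medians then move by up to 0.229), HEY and HEYC2 merged, lines left out and centring on the medium. The count past a rho of 0.5 in size was 0, and 1 (TIMP2) without the 3 arrays that stand apart, and 0 to 1 with a single array of each line (1 without replicate 1, TIMP2 at -0.501). Between SKOV3 and PEO1, 6 genes were called, 4 to 5 with 1 of the 4 arrays left out, and 8 with no minimum fold. Of the genes that differ between lines, 24 were called, 26 without the 3 arrays and 20 of 21 genes with the filter on low genes. Replicate numbers did not pair the arrays (correlation of same-numbered deviations -0.887 to 0.871, over 0.1 in 91 of 378 pairs), and the fit with a replicate block called 6 genes between SKOV3 and PEO1 and 24 between lines. Depth is not known for arrays, and low genes near background are measured least well.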
